A study of Mus musculus with 8 samples.

Results

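Cells sense oxygen through the hypoxia-inducible factors (HIFs), and the 10 genes described here code for the core of that pathway together with VEGF ligands and a mitophagy receptor. They are the oxygen-labile subunits *Hif1a* and *Epas1* (HIF-2α), their stable partner *Arnt*, the prolyl hydroxylases *Egln1*, *Egln2* and *Egln3*, the ubiquitin ligase subunit *Vhl*, the ligands *Vegfa* and *Vegfb*, and the mitophagy receptor *Bnip3*. The genes were taken by symbol from a table of 12551 counted genes, and all 10 were present. RNA-seq reads were counted in whole tibialis anterior (TA) muscles of 4 wild-type (WT) and 4 KL-/- male mice at 7 weeks of age. Klotho is a transmembrane and circulating protein that acts with fibroblast growth factor receptors in phosphate handling. The KL-/- mice carried the Klotho null allele on both chromosomes in every tissue, and the WT mice were their littermates, bred from heterozygous parents on a mixed background. The question was how expression of the pathway differed between TA muscles of the 2 genotypes.

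When oxygen is available, the EGLN enzymes hydroxylate HIF-α proteins, and VHL then binds the hydroxylated protein and marks it for the proteasome. When oxygen is low, HIF-α escapes hydroxylation, pairs with ARNT and raises transcription of genes for glycolysis, angiogenesis and oxygen sensing itself, *Egln1* and *Egln3* included. HIF-α abundance is set largely at the protein level, which RNA-seq does not measure. In skeletal muscle the fibres are a major source of VEGF-A, which acts on receptors of the capillary endothelium.

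Libraries held 20860262 to 26501093 counts in WT and 22061526 to 29273758 in KL-/- samples. Values are depth-scaled counts (CPM) with trimmed mean of M-values (TMM) factors, given as mean ± SD with n = 4 mice per genotype, and differences are log2 fold changes of KL-/- over WT with their standard error (SE) from edgeR's quasi-likelihood test. A difference was called when its Benjamini-Hochberg false discovery rate (FDR) over all 12551 genes was under 0.05. By that rule 14.0% of all genes were called, 7.35% higher and 6.67% lower in KL-/- muscles. The *Kl* transcript was not analysed here, so in these counts the genotypes rest on the labels. The paper genotyped its mice by PCR and detected neither *Kl* mRNA nor Klotho protein in KL-/- muscle. All 9 skeletal muscle fibre markers were detected, with a summed level of 130273 to 144788 CPM in WT and 148888 to 180545 CPM in KL-/- muscles (exact permutation test, two-sided, p = 0.0286, the smallest the design allows, and 0.200 adjusted over 7 marker lists). KL-/- replicate 2 stood apart from the other KL-/- samples. A chi-square statistic per gene was 60.6 to 84.8 between it and each of them, against 17.96 to 27.9 among the other three, and its fibre markers stood out in both directions. Its level of *Myh4*, the myosin of the fastest glycolytic fibres, was the highest (62798 CPM, against 32439 to 45341 in the other samples), and its levels of *Myh2* (292 CPM, against 1169 to 5441), *Myh1* (11209 CPM, against 15369 to 20009) and *Mb* (2391 CPM, against 4404 to 6408) were the lowest of the 8. KL-/- replicate 3 carried a batch label of its own, so that batch and that mouse cannot be told apart.

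*Vhl* was the 1 gene of the 10 that passed the test, and it was lower in KL-/- muscles. The hydroxylase genes, *Arnt* and *Bnip3* had higher means in KL-/- muscles without passing, and *Hif1a*, *Epas1*, *Vegfa* and *Vegfb* differed by less than 2 SE. Of the 10 genes 0 were called higher and 1 lower, against 7.35% and 6.67% of all genes, which for 10 genes is near the background. The median log2 fold change was 0.18 over the 10 genes and −0.016 over all genes, with 7 of the 10 positive. An unadjusted p under 0.05 was found for 6 of the 10, against 32.1% of all genes. The genotypes did not overlap in 2 of the 10 genes, *Egln2* above and *Vhl* below, against 19.7% of all genes (10.2% above and 9.47% below).

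**Figure D1:**
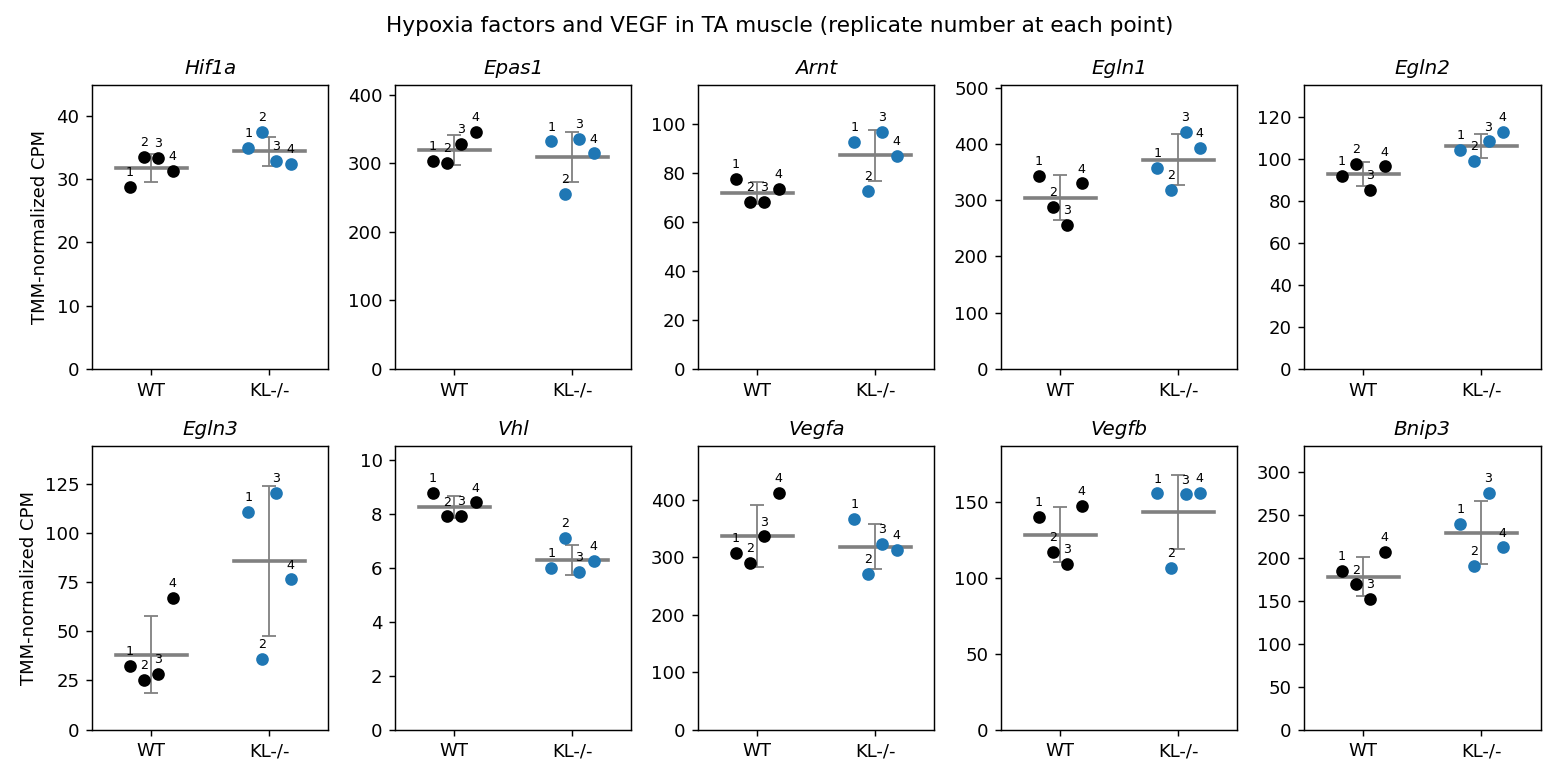
TMM-normalized CPM of the 10 genes in each TA muscle, with 1 panel per gene and the replicate number at each point. Grey lines show mean ± SD (n = 4 per genotype), and every axis starts at 0. All 4 KL-/- samples lie below all WT samples for *Vhl* and above them for *Egln2*, and KL-/- replicate 2 is the lowest or the highest KL-/- sample in every panel.

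*Vhl* (chr6:113624021-113631633, + strand, GRCm38) encodes the substrate-binding subunit of the ubiquitin ligase that recognizes hydroxylated HIF-α. It was counted at 215, 171, 208 and 235 reads in the WT samples and at 172, 149, 141 and 166 reads in the KL-/- samples. Scaled for depth, these were 8.78, 7.91, 7.93 and 8.43 CPM in WT and 5.998, 7.11, 5.84 and 6.26 CPM in KL-/- muscles. Every KL-/- sample thus lay below every WT sample, with KL-/- replicate 2 the nearest to WT. The mean fell from 8.26 ± 0.419 to 6.30 ± 0.564 CPM (log2 fold change −0.39, SE 0.098, edgeR FDR = 0.0294). Counting error alone was 6.52% to 8.42% of a sample's count, since *Vhl* had the lowest level of the 10. The FDR was above the threshold in 7 of 8 fits, each made without 1 of the samples (0.0563 to 0.0853), and under it only without KL-/- replicate 2 (0.0133), while the log2 fold change stayed between −0.44 and −0.36. Within the shared batch, without KL-/- replicate 3, *Vhl* had a log2 fold change of −0.36 with an FDR of 0.0853. A processed pseudogene, *Vhl-ps1* on chromosome 17, resembles *Vhl*, and how reads common to both were assigned is not given in the sources used here.

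The 3 prolyl hydroxylase genes all had higher means in KL-/- muscles. *Egln3* (chr12:54178981-54203874, − strand), the hydroxylase gene best known as a HIF target, had the largest difference of the 10. Its levels were 32.3, 25.1, 28.1 and 67.0 CPM in WT and 111, 36.1, 120.2 and 76.3 CPM in KL-/- muscles. WT replicate 4 was the high WT sample, and KL-/- replicate 2 fell inside the WT range. The mean was 38.1 ± 19.5 CPM in WT and 85.8 ± 38.2 CPM in KL-/- muscles, 2.25-fold higher by the fit (log2 fold change 1.17, SE 0.40, 95% confidence interval 0.27 to 2.06, edgeR FDR = 0.0787). Either of the 2 overlapping samples decided the call, since the FDR of *Egln3* was 0.0295 without WT replicate 4 and 0.0175 without KL-/- replicate 2. *Egln3* passed in only these 2 of the 8 fits made without 1 sample, and its FDR reached 0.186 in the others.

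*Egln2* (chr7:27158658-27166802, − strand) was the hydroxylase gene whose genotypes did not overlap, with 92.1, 97.6, 85.2 and 96.5 CPM in WT and 104, 99.3, 108 and 113 CPM in KL-/- muscles. Its means of 92.9 ± 5.62 and 106 ± 5.76 CPM differed by a log2 fold change of 0.19 (SE 0.065, edgeR FDR = 0.0734). *Egln1* (chr8:124908587-124949254, − strand) encodes PHD2, regarded as the main HIF hydroxylase in normal oxygen. It stood at 343, 288, 255 and 329.6 CPM in WT and at 357, 318, 421 and 393 CPM in KL-/- muscles, where only KL-/- replicate 2 lay within the WT range. The *Egln1* means were 304 ± 39.9 and 372 ± 44.5 CPM (log2 fold change 0.29, SE 0.11, edgeR FDR = 0.109). Without KL-/- replicate 2 both passed, *Egln2* at an FDR of 0.0309 and *Egln1* at 0.0372. Each passed in only that 1 of the 8 fits made without 1 sample. In the others the FDR reached 0.180 for *Egln2* and 0.255 for *Egln1*.

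Neither HIF-α transcript passed the test. *Hif1a* (chr12:73907867-73947530, + strand) was measured at 28.8, 33.5, 33.3 and 31.3 CPM in WT and at 34.97, 37.4, 32.9 and 32.4 CPM in KL-/- muscles, with overlapping ranges. The *Hif1a* means were 31.7 ± 2.18 and 34.4 ± 2.29 CPM, and the log2 fold change of 0.12 had a 95% confidence interval of −0.049 to 0.28 (SE 0.074, edgeR FDR = 0.301). When TMM factors were replaced by library totals, a scaling that moved the median of all genes to −0.13, *Hif1a* had a log2 fold change of −0.0014. *Epas1* (chr17:86753864-86833410, + strand), whose product HIF-2α is prominent in endothelium, had 304, 301, 328 and 345 CPM in WT and 332, 256, 336 and 315 CPM in KL-/- muscles. KL-/- replicate 2 was the lowest of the 8. The *Epas1* means were 319.6 ± 21.2 and 309.6 ± 37.0 CPM (log2 fold change −0.046, 95% confidence interval −0.25 to 0.16, SE 0.093, edgeR FDR = 0.764), and the sign turned without KL-/- replicate 2 (0.044). In whole muscle, fewer cells of a type and less RNA per cell cannot be told apart. The ratio of *Hif1a* to *Epas1* levels per kilobase was 0.112 ± 0.0102 in WT and 0.127 ± 0.0250 in KL-/- muscles.

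*Arnt* (chr3:95434390-95497239, + strand), which codes for the constitutive partner of both HIF-α proteins, had the lowest FDR of the genes with a positive fold change. Its level was 77.7, 68.3, 68.2 and 73.4 CPM in WT and 92.7, 72.8, 96.7 and 87.1 CPM in KL-/- muscles. Again 3 of the 4 KL-/- samples exceeded the WT range and KL-/- replicate 2 lay inside it. The mean was 71.9 ± 4.59 CPM in WT and 87.3 ± 10.4 CPM in KL-/- muscles (log2 fold change 0.28, SE 0.091, edgeR FDR = 0.0675). Without KL-/- replicate 2 *Arnt* passed, with a log2 fold change of 0.37 and an FDR of 0.00717. It passed in no other fit that left out 1 sample, and there the FDR reached 0.169.

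*Bnip3* (chr7:138890836-138909506, − strand), a HIF target whose product sits on the outer mitochondrial membrane and recruits autophagosomes, was 28.7% higher by the fit. It was counted at 184, 169, 152 and 207 CPM in WT and at 239, 190.03, 275 and 212 CPM in KL-/- muscles. KL-/- replicate 2 was the 1 KL-/- sample below the highest WT sample. The *Bnip3* means were 178 ± 23.0 and 229 ± 36.8 CPM (log2 fold change 0.36, SE 0.13, edgeR FDR = 0.0803), and *Bnip3* passed without KL-/- replicate 2 (log2 fold change 0.45, FDR = 0.0261). In the other fits that left out 1 sample *Bnip3* did not pass, with an FDR of up to 0.193.

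The transcripts of the 2 VEGF ligands did not differ detectably. *Vegfa* (chr17:46016993-46032377, − strand), the main angiogenic ligand and a HIF target, was at 307, 289, 336 and 411 CPM in WT and at 367, 271, 323 and 312 CPM in KL-/- muscles. The WT samples spanned the wider range, which held 3 of the 4 KL-/- values. The *Vegfa* means were 336 ± 53.8 and 318 ± 39.4 CPM (log2 fold change −0.078, 95% confidence interval −0.35 to 0.20, SE 0.12, edgeR FDR = 0.691). Its sign turned without WT replicate 4 (0.034) and without KL-/- replicate 2 (0.00028). *Vegfb* (chr19:6982472-6987651, − strand), a ligand of FLT1 that is abundant in muscle and heart, was at 140.2, 117, 109 and 147 CPM in WT and at 156, 107, 155 and 156 CPM in KL-/- muscles. Of the KL-/- samples 3 lay close together above the WT range and KL-/- replicate 2 lay below it. The *Vegfb* means were 128 ± 18.3 and 143 ± 24.4 CPM (log2 fold change 0.16, 95% confidence interval −0.15 to 0.47, SE 0.14, edgeR FDR = 0.464).

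KL-/- replicate 2 was the lowest KL-/- sample in 8 of the 10 genes and the highest in 2, *Hif1a* and *Vhl*. Over all genes it was the lowest of the 4 in 30.1% and the highest in 32.8%. Without it 5 of the 10 genes were called higher (*Arnt*, *Egln1*, *Egln2*, *Egln3* and *Bnip3*), where 12.1% of all genes were. Without WT replicate 4, and likewise by the likelihood ratio test on all samples, 1 of the 10 was called higher (*Egln3*), against 5.39% and 8.17% of all genes. DESeq2 on all 8 samples called 3 of the 10 higher (*Arnt*, *Egln2* and *Bnip3*), with 10.5% of all genes called higher by that tool. The part that its different fibre markers played was not tested. Library totals in place of TMM lowered every value, with log2 fold changes of 0.16 for *Arnt*, 0.17 for *Egln1*, 0.075 for *Egln2*, 1.05 for *Egln3*, 0.25 for *Bnip3*, 0.040 for *Vegfb*, −0.16 for *Epas1*, −0.20 for *Vegfa* and −0.51 for *Vhl*.

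**Figure D2:**
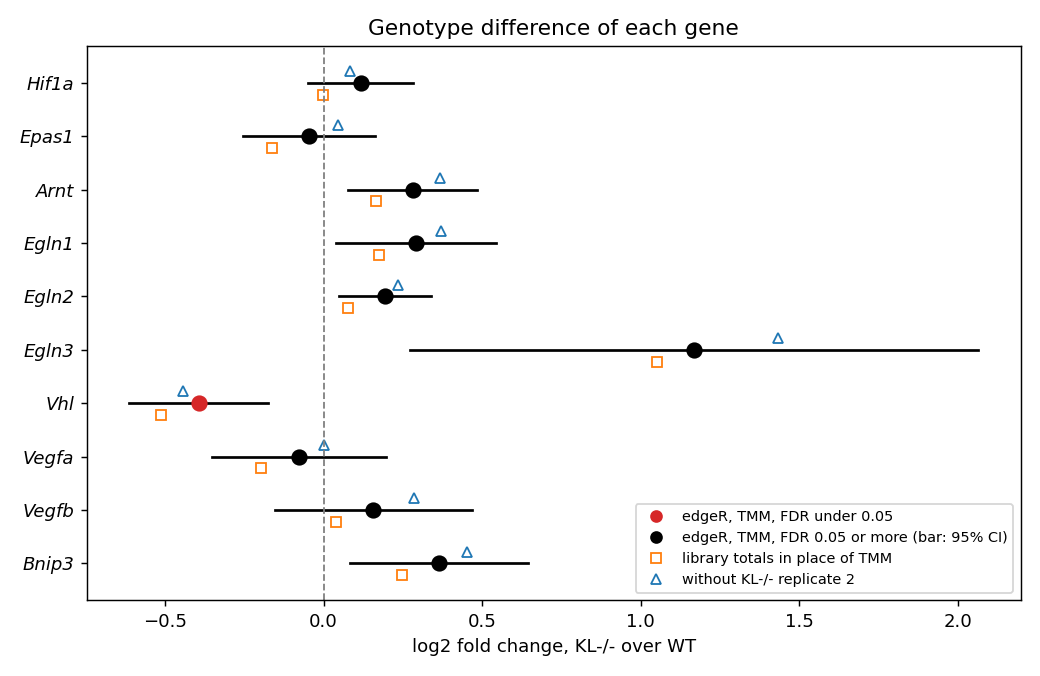
Log2 fold change of KL-/- over WT for each of the 10 genes, where circles are edgeR values with 95% confidence intervals (red: FDR under 0.05), squares use library totals and triangles leave out KL-/- replicate 2. *Vhl* is the 1 red circle, at −0.39, and *Egln3* has the largest value, 1.17, and the widest interval, 0.27 to 2.06.

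Levels were set side by side per kilobase of counted gene length. In WT muscles *Bnip3* was highest with 101 CPM per kilobase, followed by *Vegfb* with 100.2, *Egln1* with 86.3, *Vegfa* with 80.5 and *Epas1* with 59.7. The samples of *Bnip3*, *Vegfb*, *Egln1* and *Vegfa* overlapped from each gene to the next. Below them came *Egln2* with 44.1, *Arnt* with 16.5, *Egln3* with 14.3, *Hif1a* with 6.66 and *Vhl* with 3.03 CPM per kilobase, of which only *Arnt* and *Egln3* overlapped. In KL-/- muscles *Bnip3* was again highest with 131 CPM per kilobase and *Vhl* again lowest with 2.31. *Egln3* and *Arnt* changed places, at 32.1 and 19.98 CPM per kilobase, but their samples overlapped in both genotypes.

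The promoters of 3 of these genes are shown because they carry the largest fold, the most HIF motifs in 1 window and the only call. Each is the 250 bases before the RefSeq start site in GRCm38.p6, read 5′ to 3′ on the strand of the gene, with every HIF core motif (ACGTG or GCGTG on either strand) in capitals. They span chr12:54203875-54204124 for *Egln3* (− strand), chr7:138909507-138909756 for *Bnip3* (− strand) and chr6:113623744-113623993 for *Vhl* (+ strand).
Egln3: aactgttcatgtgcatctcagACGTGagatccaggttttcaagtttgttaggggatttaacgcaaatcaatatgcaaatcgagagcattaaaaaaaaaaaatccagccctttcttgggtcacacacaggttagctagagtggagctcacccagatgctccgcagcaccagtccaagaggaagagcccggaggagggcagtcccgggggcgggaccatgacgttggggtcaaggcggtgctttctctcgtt
Bnip3: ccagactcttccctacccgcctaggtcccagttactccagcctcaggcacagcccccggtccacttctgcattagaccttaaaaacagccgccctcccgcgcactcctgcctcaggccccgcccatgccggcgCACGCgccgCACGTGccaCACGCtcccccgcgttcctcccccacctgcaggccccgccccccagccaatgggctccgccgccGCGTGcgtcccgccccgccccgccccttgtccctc
Vhl: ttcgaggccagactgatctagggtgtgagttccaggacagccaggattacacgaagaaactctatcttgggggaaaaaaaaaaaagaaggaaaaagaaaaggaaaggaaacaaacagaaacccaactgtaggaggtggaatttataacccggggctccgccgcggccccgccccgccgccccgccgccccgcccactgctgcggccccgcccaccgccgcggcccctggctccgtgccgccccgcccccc

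*Egln3* held 1 motif, *Bnip3* 5 motifs of which 2 overlap on opposite strands, and *Vhl* 0. RefSeq promoters were matched for 9 of the 10 genes, all but *Epas1*, with 11 start sites in all. A motif was present for 8 of the 9 genes and in 9 of the 11 windows. *Vegfa* is among the 8 through 1 of its 2 windows (chr17:46025164-46025413, 2 motifs), which lies inside the counted gene. Its window at chr17:46032378-46032627, upstream of the counted gene, held 0. The motifs are short and common, being present in 38.6% of 32851 promoters of the same length and in 55% of the 12265 that belong to counted genes. A match is a description of letters and not of binding.

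Around the 10 genes, 20 further regulators and partners of HIF were all measured, of which 3 were higher, 2 lower and 15 did not pass. Their median log2 fold change was 0.17, and 25% were called against 14.0% of all genes. This list and those below were chosen with earlier results known, so a share above that of all genes is a description. *Gnb2l1*, which codes for the ribosomal scaffold RACK1 that promotes oxygen-independent HIF-1α turnover, was at 217 to 239 CPM in WT and at 300.3 to 338 CPM in KL-/- muscles (log2 fold change 0.51, SE 0.062, edgeR FDR = 0.00273). *Tceb2*, the elongin B subunit of the VHL complex, was at 58.7 to 68.6 CPM in WT and at 75.9 to 82.6 CPM in KL-/- muscles (0.30, SE 0.066, FDR = 0.0193). *Ube2s*, a ubiquitin-conjugating enzyme, rose from 23.1 ± 0.783 to 27.3 ± 1.74 CPM (0.24, FDR = 0.0413). All 3 had KL-/- samples wholly above the WT range, which held for 6 of the 20 and for 10.2% of all genes. *Siah2*, a ubiquitin ligase that targets EGLN proteins, fell from 13.0 ± 0.709 to 9.05 ± 1.17 CPM (−0.52, FDR = 0.0154), and the chaperone *Hsp90aa1* fell from 33.8 ± 3.24 to 25.7 ± 2.93 CPM (−0.39, FDR = 0.0321). *Gnb2l1* and *Siah2* passed in all 8 fits without 1 sample, *Tceb2* in 4 (not without WT replicates 2 or 3 or KL-/- replicates 3 or 4), *Hsp90aa1* in 3 (not without WT replicates 1, 3 or 4 or KL-/- replicates 3 or 4) and *Ube2s* only without KL-/- replicate 2. With library totals *Tceb2* (0.19, FDR = 0.0673) and *Ube2s* (0.13, FDR = 0.188) did not pass.

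Among 20 measured HIF targets of glucose metabolism, edgeR's quasi-likelihood test on all 8 samples called 0 in either direction, against 14.0% of all genes. Their median log2 fold change was 0.058, and 4 of the 20 had an unadjusted p under 0.05, against 32.1% of all genes. DESeq2 called 3 of the 20 higher (*Aldoa*, *Gapdh* and *Gpi1*), against 10.5% of all genes. The likelihood ratio test called 1 higher (*Gapdh*), against 8.17% of all genes. Limma-voom and an older edgeR quasi-likelihood fit likewise called *Gapdh*, and library totals gave 2, both lower (*Pfkp* and *Slc16a3*). Leaving out KL-/- replicate 2 called 2 higher (*Gapdh* and *Slc2a1*), against 12.1% of all genes. Leaving out KL-/- replicate 4 called 1 lower (*Slc16a3*). *Gapdh*, a glycolytic enzyme, was at 6826 ± 272 CPM in WT and at 8255 ± 495 CPM in KL-/- muscles (log2 fold change 0.27, FDR = 0.107). *Ldha*, which makes lactate and is a textbook HIF target, was at 2740.3 ± 214 and 2862 ± 202 CPM (0.063, FDR = 0.674), and was picked after its value was seen. *Aldoc*, *Eno1* and *Eno1b* were not analysed here.

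Targets that act in stress, oxygen and iron handling were called in both directions, with 3 higher, 2 lower and 19 not passing among 24 measured genes (median log2 fold change 0.096), 20.8% called against 14.0% of all genes. *Ddit4*, an inhibitor of mTORC1 that also responds to glucocorticoids, was at 5.41 to 9.43 CPM in WT and at 17.0, 16.1, 141 and 41.5 CPM in KL-/- muscles (2.85, SE 0.68, edgeR FDR = 0.0266). The log2 fold change of *Ddit4* was 1.73 without KL-/- replicate 3, the highest sample. *Stc2*, a secreted glycoprotein, rose from 2.27 ± 0.435 to 4.81 ± 1.94 CPM (1.09, FDR = 0.0360), and *Mxi1*, a MYC antagonist, rose from 59.5 ± 5.92 to 92.8 ± 13.6 CPM (0.64, FDR = 0.00863). *Hilpda*, whose product inhibits triglyceride lipolysis at lipid droplets, was at 3.84, 4.21, 4.58 and 4.20 CPM in WT and at 1.88, 2.15, 2.07 and 2.37 CPM in KL-/- muscles (−0.99, SE 0.13, FDR = 0.00334). *Hmox1*, which degrades haem, fell from 6.94 ± 0.944 to 4.54 ± 1.09 CPM (−0.62, FDR = 0.0453). *Mxi1* and *Hilpda* passed whichever sample was left out. *Ddit4* passed in 3 of the 8 such fits (not without any 1 WT sample or KL-/- replicate 4), *Stc2* in 2 (only without KL-/- replicates 1 or 2) and *Hmox1* in 1 (only without KL-/- replicate 2). *Car12* was not analysed here.

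Among 14 measured HIF targets of matrix and vessels, 1 was higher, 1 was lower and 12 did not pass (median log2 fold change −0.28, 11 of 14 negative), 14.3% called against 14.0% of all genes. *P4ha1*, the catalytic subunit of the prolyl hydroxylase that matures collagen, was at 43.8, 37.6, 43.0 and 45.7 CPM in WT and at 28.7, 30.7, 23.9 and 23.2 CPM in KL-/- muscles (−0.68, SE 0.10, edgeR FDR = 0.00598). It passed in all 8 fits without 1 sample. *Ctgf*, a matricellular protein gene, rose from 13.6 ± 2.43 to 20.8 ± 2.89 CPM (0.62, FDR = 0.0238), and passed in 4 of those fits (not without WT replicate 3 or KL-/- replicates 1, 3 or 4). The summed level of 9 fibro-adipogenic progenitor markers, cells that make collagen, was 818 to 3002 CPM in WT and 456 to 1344 CPM in KL-/- muscles (exact permutation test, two-sided, p = 0.143). All 9 had negative log2 fold changes (median −0.94), and 3 were called lower (*Dcn*, *Lum* and *Dpp4*), 33.3% against 6.67% of all genes. The part of these cells in the *P4ha1* result was not tested. *Epo* was not analysed here.

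**Figure D3:**
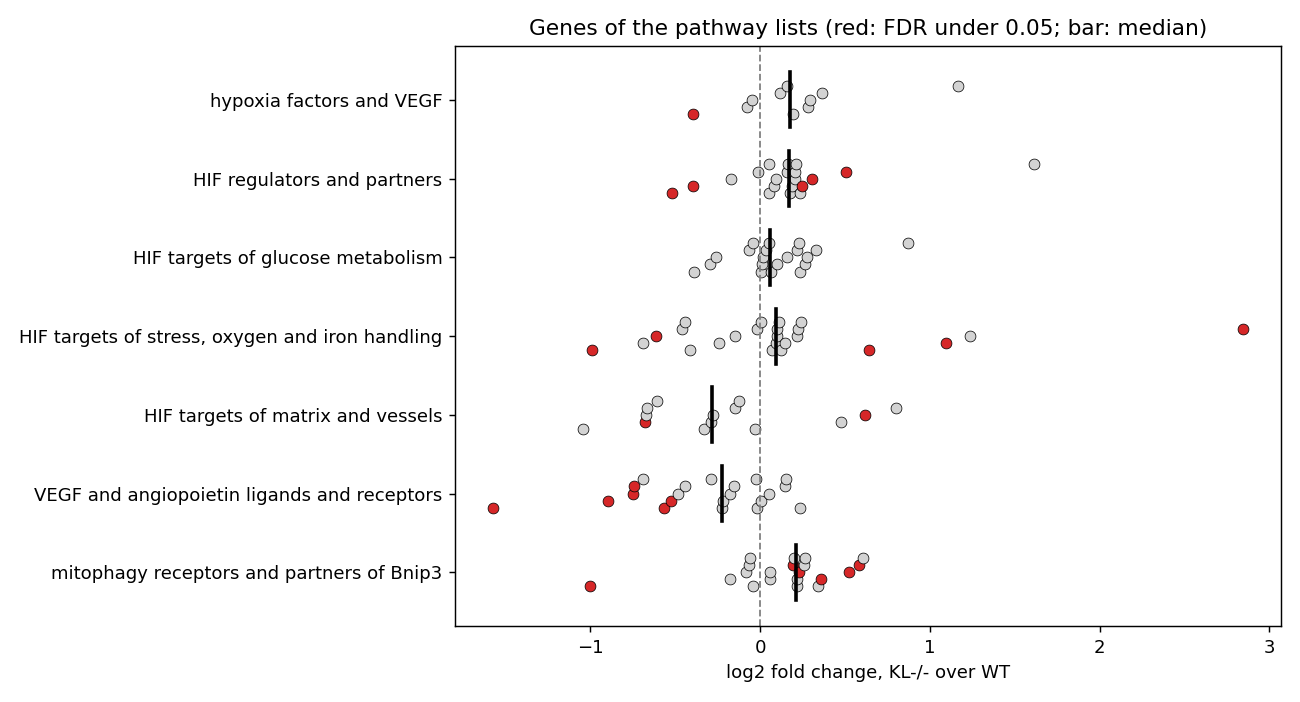
Log2 fold change of KL-/- over WT for every gene of the 7 lists, with 1 row per list, each point a gene (red: edgeR FDR under 0.05) and each bar the list's median. Glucose targets hold no red point, the VEGF and angiopoietin list has 6 on the lower side, and mitophagy genes have 5 on the higher side.

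Several other vessel signalling genes fell in KL-/- muscles, among them the VEGF-A receptor *Kdr*. Of 21 measured ligands and receptors of the VEGF, angiopoietin, apelin, Notch, ephrin and PDGF families, 0 were higher, 6 lower and 15 did not pass. Their median log2 fold change was −0.22, and 28.6% were called lower against 6.67% of all genes. The list was chosen with earlier results of these data known, so that excess is a description. *Kdr*, the main signalling receptor of VEGF-A, was at 77.0, 86.9, 124 and 120.4 CPM in WT and at 57.4, 54.9, 48.0 and 59.1 CPM in KL-/- muscles. Its KL-/- samples lay close together below the lowest WT sample. The *Kdr* mean fell from 102 ± 23.6 to 54.8 ± 4.90 CPM (log2 fold change −0.90, SE 0.15, edgeR FDR = 0.00781). *Flt1*, which codes for the receptor that binds both VEGF-A and VEGF-B, was at 83.0 ± 4.73 and 92.4 ± 14.6 CPM (0.15, FDR = 0.339).

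*Vegfc*, a ligand of lymphatic growth, was at 2.78, 3.19, 3.74 and 3.23 CPM in WT and at 2.02, 1.77, 2.24 and 1.66 CPM in KL-/- muscles (−0.75, SE 0.16, edgeR FDR = 0.0164). *Aplnr*, the apelin receptor gene of endothelium, was at 23.2 to 59.9 CPM in WT and at 5.18 to 19.8 CPM in KL-/- muscles, with no overlap (−1.58, SE 0.41, FDR = 0.0341). The other 3 genes that fell, with *Flt1*, are named after their values were seen. The VEGF co-receptor *Nrp1* had 91.2, 109.6, 130.1 and 114 CPM in WT and 71.7, 76.6, 75.2 and 85.1 CPM in KL-/- muscles (−0.53, SE 0.10, FDR = 0.0129). *Nrp2*, the related co-receptor, fell from 25.6 ± 3.37 to 17.3 ± 3.20 CPM (−0.56, FDR = 0.0283), and *Angpt1*, the ligand that stabilizes vessels through TIE2, fell from 26.7 ± 1.84 to 16.0 ± 6.33 CPM (−0.74, FDR = 0.0485).

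*Kdr* and *Nrp1* passed in all 8 fits without 1 sample and *Vegfc* in 7 (FDR = 0.0515 without KL-/- replicate 4). *Aplnr* passed in 3 (not without WT replicates 2 or 3 or KL-/- replicates 1, 3 or 4), *Nrp2* in 2 (only without WT replicate 1 or KL-/- replicate 2) and *Angpt1* only without KL-/- replicate 2. Beside these, the summed level of 18 endothelial markers was 1043 to 1435 CPM in WT and 1072 to 1105 CPM in KL-/- muscles (exact permutation test, two-sided, p = 0.257), with 1 marker higher (*Sox17*), 1 lower (*Sox18*) and none at 0 in any sample. WT replicate 1 was the lowest WT sample at 1043 CPM, and the other WT samples, at 1122 to 1435 CPM, all lay above the KL-/- samples. The permutation test of the endothelial sum gave p under 0.05 in 1 alternative run, without WT replicate 1, and not in 9 others. The sum of 9 pericyte and smooth muscle markers was 722 to 969 CPM in WT and 816 to 912 CPM in KL-/- muscles (exact permutation p = 0.8286). Mean sums in KL-/- muscles were 0.90 of WT for endothelial and 0.99 for pericyte and smooth muscle markers. They were 0.43 of WT for fibro-adipogenic progenitor and 0.64 for macrophage markers, with overlapping ranges (exact permutation p = 0.143 and 0.171). Of the 18 endothelial markers 14 had negative log2 fold changes (median −0.13). Of these 18, 11.1% were called, against 14.0% of all genes, and 8 had an unadjusted p under 0.05, against 32.1% of all genes. The part of any of these cell types in the falls of *Kdr*, *Nrp1* and the other called genes was not tested.

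**Figure D4:**
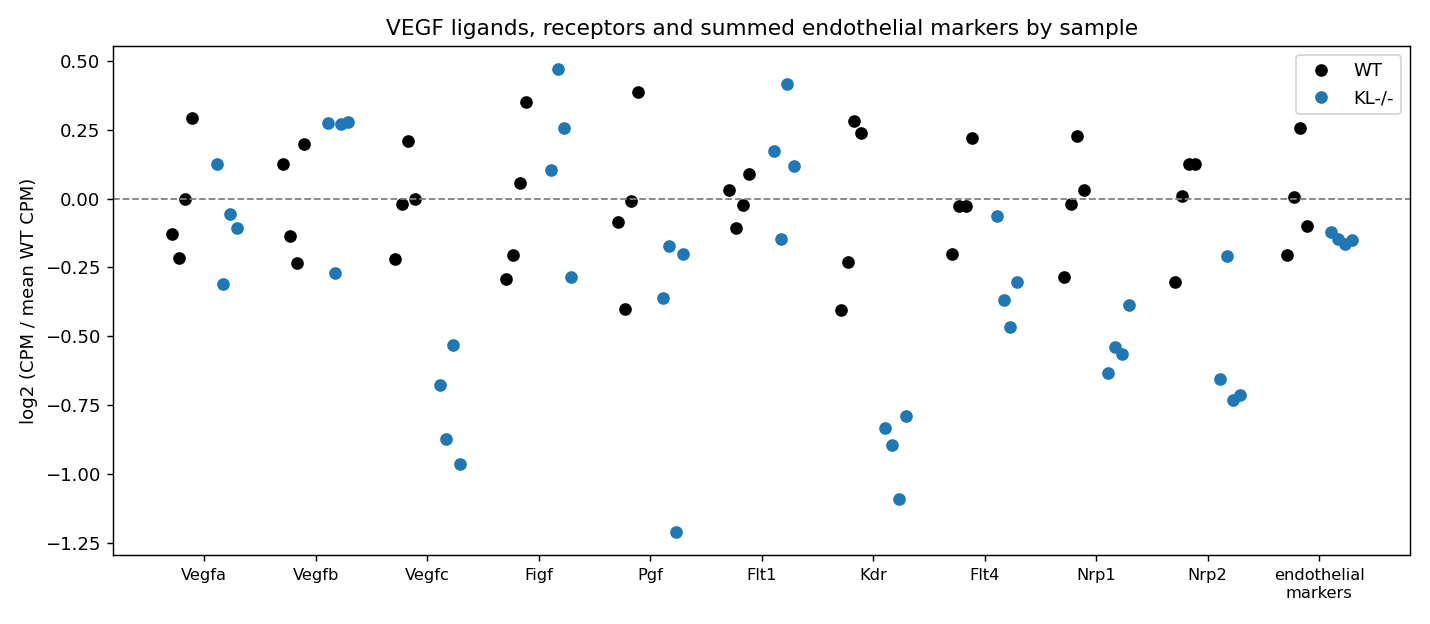
Log2 of CPM over the mean WT CPM in each sample for VEGF ligands, their receptors and co-receptors, and the summed endothelial markers (black: WT, blue: KL-/-, n = 4 each). KL-/- samples lie below all WT samples for *Vegfc*, *Kdr* and *Nrp1* and overlap them for *Vegfa*, *Flt1* and the endothelial markers.

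*Bnip3* belongs to the receptors that mark mitochondria for autophagy, and 20 other genes of that machinery were measured, of which 5 were higher, 1 lower and 14 did not pass (median log2 fold change 0.21), so that 30% were called against 14.0% of all genes. *Pink1*, the kinase that recruits parkin to damaged mitochondria, was at 863, 722, 669 and 782 CPM in WT and at 1189, 971, 1235 and 1155 CPM in KL-/- muscles. All 4 KL-/- samples exceeded all WT samples. The *Pink1* mean rose from 759 ± 83.3 to 1137 ± 116 CPM (log2 fold change 0.58, SE 0.10, edgeR FDR = 0.00894). *Bcl2*, the anti-apoptotic protein that binds BNIP3 and beclin 1, was at 7.31, 8.05, 6.02 and 7.17 CPM in WT and at 4.01, 3.82, 2.20 and 4.15 CPM in KL-/- muscles (−1.003, SE 0.19, FDR = 0.0111).

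The autophagosome genes *Map1lc3a* (0.52, FDR = 0.0318) and *Map1lc3b* (0.36, FDR = 0.0274) rose, from 173 ± 17.8 to 248 ± 45.6 CPM and from 175 ± 14.4 to 225 ± 23.8 CPM. *Fkbp8*, a mitochondrial LC3-binding protein gene, rose from 103 ± 5.35 to 121 ± 4.76 CPM (0.23, FDR = 0.0314), and *Becn1*, of the autophagy initiation complex, rose from 56.0 ± 1.61 to 64.1 ± 3.32 CPM (0.20, FDR = 0.0498). *Bnip3l*, the closest relative of *Bnip3*, was at 70.2 ± 6.75 and 81.7 ± 7.70 CPM (0.22, FDR = 0.120) and was picked after its value was seen. *Pink1* and *Bcl2* passed in all 8 fits without 1 sample. *Map1lc3b* passed in 3 (not without WT replicates 2, 3 or 4 or KL-/- replicates 3 or 4), *Fkbp8* in 2 (only without WT replicate 2 or KL-/- replicate 2), and *Map1lc3a* and *Becn1* only without KL-/- replicate 2. With library totals 1 gene of the list, *Pink1*, was still called higher (0.47, FDR = 0.0154).

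**Figure D5:**
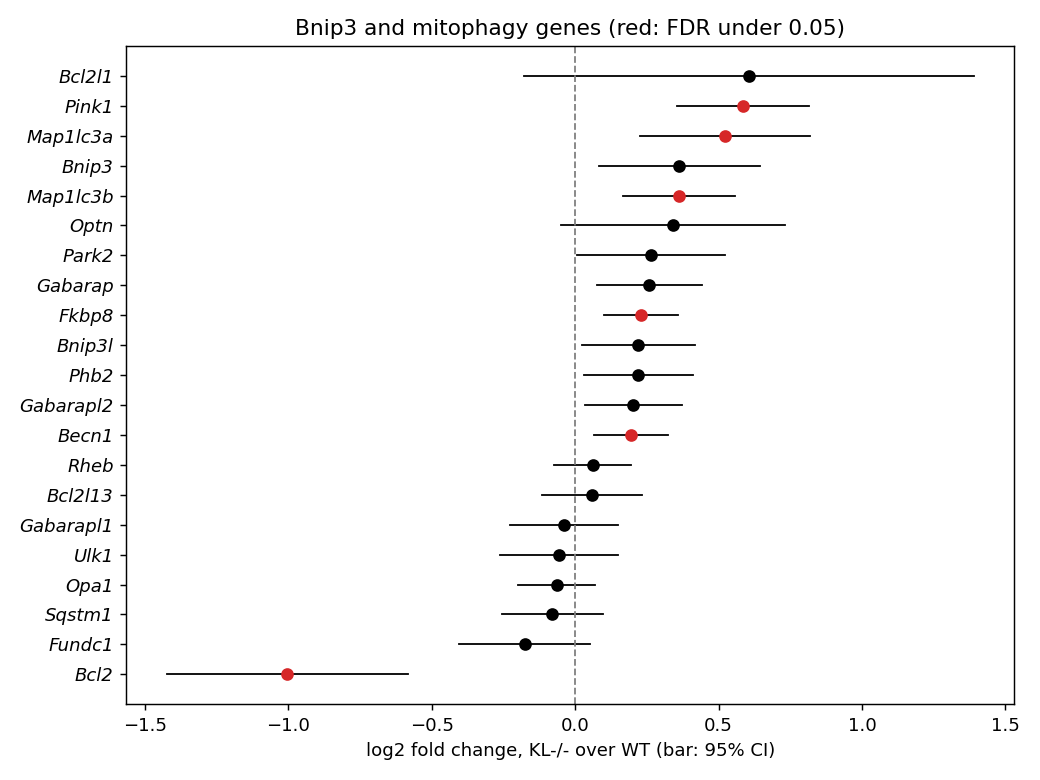
Log2 fold change of KL-/- over WT with 95% confidence intervals for *Bnip3* and 20 mitophagy genes, ordered by value (red: edgeR FDR under 0.05). *Pink1* at 0.58 and *Bcl2* at −1.003 are the red points farthest from 0, and the interval of *Bnip3* lies above 0 although its FDR was 0.0803.

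Genes that varied most like a member were sought for the 3 members with the lowest FDR, over 11035 genes with an average of at least 1 on the log2 CPM scale, as Pearson's r of log2 CPM after each genotype mean was subtracted. These are descriptions over the same 8 libraries, and each r is the highest of many computed. For *Vhl* they were *Naa38*, *Slc39a3* and *Sec61a2* (each r = 0.98). For *Arnt* they were *Ggps1*, *Bag6* and *Trpc4ap* (each r = 0.99), and for *Egln2* they were *Immp2l* (r = 0.98), *Rpl8* (r = 0.98) and *Gpatch3* (r = 0.97).

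Several of the 10 genes overlap other annotated genes, and neither the strand setting nor the annotation used for counting is given in the sources used here. In GENCODE M21 *Hif1a* overlaps the antisense gene *Gm15283* and the protein-coding *Gm49321* on its own strand, *Epas1* overlaps *AC096777.1*, *Arnt* overlaps the processed pseudogene *Gm42672*, *Bnip3* overlaps the antisense gene *Gm45507* and the processed pseudogene *Gm18258*, and *Egln2* touches *Cyp2t4* at its 3′ end. Reads from such partners cannot be told apart in these counts.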

How the data were processed

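Total RNA from snap-frozen TA muscles of 4 WT and 4 KL-/- male mice was sequenced. The authors deposited raw counts per gene, made from reads checked with FastQC, aligned to mm10 with STAR and counted with featureCounts, per the labels. The annotation version and strand setting are not given in the sources used here. Replicates are separate mice.

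Tests of the deposited counts used edgeR 4.0.16 under R 4.3.3 (filterByExpr, which removed 0 genes, TMM factors, glmQLFit with legacy set to false, glmQLFTest, genotype as the only term) and Benjamini-Hochberg adjustment over 12551 genes. SE was derived from the F statistic. Summed marker levels were compared by an exact two-sided permutation test over 70 relabelings. No library was a duplicate of another, and 3 counts corresponded to 0.102 to 0.144 CPM by library totals, without TMM factors. Alternatives used DESeq2 1.42.0, limma-voom (limma 3.58.1), the likelihood ratio test, an older edgeR fit, other scalings and filters, a replicate block and leaving out each sample. The code was tested on simulated data.

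The 10 genes and all lists were chosen with earlier results of these data known. Named list genes were those past the threshold, at most 3 per direction by size, and all where 5 or fewer passed. Deposited symbols were kept (*Tceb2* is *Elob*, *Gnb2l1* is *Rack1*, *Ctgf* is *Ccn2*). Promoters came from RefSeq (GRCm38.p6). Markers of macrophages, adipocytes and erythroid cells were summed too. The 12 macrophage markers were at 70.9 to 149 CPM in WT and 48.2 to 85.2 CPM in KL-/- muscles (exact permutation p = 0.171). Of the 12, 11 had negative log2 fold changes (median −0.91). By edgeR 4 were called lower (*Cx3cr1*, *Itgam*, *Adgre1* and *Ccr2*), 33.3% against 6.67% of all genes. Adipocyte markers (4 of 6 analysed) were at 6.57 to 25.4 CPM in WT and 5.18 to 71.1 CPM in KL-/- muscles (exact permutation p = 0.257). For erythroid cells 1 of 7 was analysed, *Alas2*, at 3.35 to 9.57 CPM in WT and 3.07 to 9.16 CPM in KL-/- muscles (exact permutation p = 0.943).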

Additional observations from a re-analysis of the deposited data

Results flagged for a closer look

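*Vegfb* in KL-/- muscles held a sample far from the others. KL-/- replicate 2 was at 107 CPM, against 155 to 156 CPM in the other 3, and its gap to the nearest of them was 0.981 of the group's range, above Dixon's 95% critical value for 4 samples. Without KL-/- replicate 2 the log2 fold change of *Vegfb* was 0.28 with an edgeR FDR of 0.0719. This was the 1 such sample in 20 groups examined (10 genes in 2 genotypes), and chance gives about 1 in 20.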

How the results depend on the processing

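Of the 10 genes, DESeq2 called 3 higher, the likelihood ratio test 1 and leaving out 1 sample 0 to 5. The number called lower was 0 to 1 when 1 sample was left out. *Hif1a* turned to −0.0014 with library totals. Leaving out 1 sample gave log2 fold changes of −0.087 to 0.044 for *Epas1* and −0.14 to 0.034 for *Vegfa*. The log2 ratio of summed markers was then −0.091 to 0.047 for pericyte and smooth muscle, −0.11 to 0.53 for erythroid, −0.21 to −0.048 for endothelial and 0.17 to 0.26 for muscle fibre markers, and 0.097 (exact permutation p = 0.171) for muscle fibre markers with library totals.

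With the replicate number as a block 0 of the 10 genes were lower (*Vhl* −0.40, FDR = 0.0924), and 671 of all genes were called in place of 1759. The numbers were not treated as pairs, since same-numbered samples deviated with correlations of −0.15, 0.18, −0.37 and 0.017, and 1 of 8 samples correlated best with its own number. Calls over all genes ranged from 762 to 2755 when 1 sample was left out. The cause of these changes was not tested. *Vhl* kept its direction in every alternative run. Depth limits *Vhl* most, at 141 to 235 counts per sample.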
